A study of Mus musculus with 6 samples.

Results

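The claudins are the membrane proteins that form the strands of tight junctions, and 10 of their genes (*Cldn1*, *Cldn2*, *Cldn3*, *Cldn4*, *Cldn6*, *Cldn7*, *Cldn8*, *Cldn12*, *Cldn15* and *Cldn23*) were followed through 6 mouse RNA sequencing libraries. They were taken by symbol from the 37 genes of the files that carry a claudin symbol, among 56884 genes in all. The libraries come from cells positive for Lgr5-GFP, sorted from organoids of the small intestine, a culture in which intestinal epithelium forms crypt-like buds. All cultures carried the same alleles: *Ythdf2* flanked by loxP sites (Ythdf2fl/fl), a Villin-CreERT2 transgene, and Lgr5-EGFP-IRES-CreERT2. CreERT2 is a Cre recombinase that acts once 4-hydroxytamoxifen (4-OHT) binds it. The villin promoter places it throughout the intestinal epithelium, and the *Lgr5* allele places it, with the green fluorescent protein used for the sort, in intestinal stem cells. Cells were sorted 4 or 6 days after 4-OHT at 0.5 µM or after its vehicle ethanol (EtOH), with 2 libraries of each treatment at day 6 and 1 of each at day 4. The EtOH cultures thus carry the floxed gene and CreERT2 as well. The labels do not say whether the day 6 replicates came from separate mice or cultures, so p-values measure the spread between these libraries, which may be technical.

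Claudins span the membrane 4 times and join within one cell and across to the neighbouring cell, and the set of claudins a cell makes decides which ions pass between cells. Claudin-2 and claudin-15 form pores for small cations, and claudin-2 also for water. In the small intestine claudin-2 is known mainly from crypts, where stem cells lie, and claudin-15 from crypts and villi. Claudin-3, claudin-7 and claudin-12 are found widely along the epithelium, with claudin-7 also on the lateral membrane. Claudin-4 and claudin-23 are known from villus or surface cells and tighten the junction. Claudin-1, claudin-6 and claudin-8 are low in small intestine: claudin-8 belongs to the distal gut and kidney, claudin-6 to embryonic epithelium, and claudin-1 is raised in inflamed or injured gut.

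Library totals ran from 14345379 to 21461835 gene counts. *Ythdf2*, the floxed gene, had 82.8 and 76.0 CPM (counts scaled to a common library size) in the EtOH libraries of day 6 against 208 and 204 in those labelled 4-OHT, and 76.0 against 167 at day 4. The counts of the targeted gene were thus higher, not lower, in each library labelled 4-OHT, and counts per gene do not show whether the floxed part was gone. Libraries are therefore named by their labels, and a claudin is called higher or lower by its level under the 4-OHT label compared with the EtOH label. *Lgr5*, the gene of the sort, stood at 209 to 368 CPM in all 6 libraries. The defining genes of other tissues were near 0: the summed level of 6 fibroblast markers (*Lum* at 0 counts throughout) was 0.371 to 1.09 CPM per library. Of 6 immune markers, 5 stayed under 10 counts in every library, and *Cd68* made up most of the sum of 4.40 to 8.46 CPM.

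The claudins that differed most between treatments, *Cldn4* and *Cldn23*, are shown first by the 250 bases before their annotated starts, with *Cldn3*, the neighbour of *Cldn4* that differed less, and *Cldn2*, the crypt claudin. The windows lie at chr5:134975789-134976038 (minus strand), chr8:36293714-36293963 (minus strand), chr5:135014818-135015067 (plus strand) and chrX:138701230-138701479 (plus strand) in GRCm39, with gene starts from GENCODE M39. Each is written 5′ to 3′ toward the gene, and capitals mark matches, on either strand, to any of 8 motifs searched.
Cldn4: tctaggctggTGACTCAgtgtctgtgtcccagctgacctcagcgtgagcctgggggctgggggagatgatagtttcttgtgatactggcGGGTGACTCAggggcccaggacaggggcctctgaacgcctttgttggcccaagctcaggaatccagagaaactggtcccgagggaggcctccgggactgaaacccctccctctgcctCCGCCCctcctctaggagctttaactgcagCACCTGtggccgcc
Cldn23: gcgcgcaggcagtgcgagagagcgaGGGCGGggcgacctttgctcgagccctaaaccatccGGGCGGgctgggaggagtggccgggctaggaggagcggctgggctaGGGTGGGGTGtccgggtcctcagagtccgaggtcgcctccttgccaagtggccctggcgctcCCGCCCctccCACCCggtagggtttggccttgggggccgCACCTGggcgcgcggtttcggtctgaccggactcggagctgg
Cldn3: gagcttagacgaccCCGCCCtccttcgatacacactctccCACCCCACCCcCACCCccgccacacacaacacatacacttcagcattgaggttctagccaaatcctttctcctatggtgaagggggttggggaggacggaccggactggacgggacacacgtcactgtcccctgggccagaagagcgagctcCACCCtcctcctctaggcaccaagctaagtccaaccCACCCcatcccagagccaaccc
Cldn2: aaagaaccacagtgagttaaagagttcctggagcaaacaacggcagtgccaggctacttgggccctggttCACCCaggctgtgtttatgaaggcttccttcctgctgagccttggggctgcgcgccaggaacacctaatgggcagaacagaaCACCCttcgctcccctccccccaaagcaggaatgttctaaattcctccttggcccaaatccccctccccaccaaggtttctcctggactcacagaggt
The motifs were CACCC (the core bound by KLF factors), GGGCGG (the GC box bound by Sp1), CACCTG (an E-box bound by Snail), AACCNGTT (grainyhead-like factors), TGANTCA (AP-1), TTTATGG (caudal factors such as Cdx2), CTTTGAT (TCF/LEF) and CAAAGTC (HNF4). CACCC occurred in 51.3% of the 21770 windows of the same length before protein-coding genes, GGGCGG in 29.9% and CACCTG in 17.7%. The *Cldn4* and *Cldn23* windows each held all 3 of these. CACCTG began 14 bases before the *Cldn4* start and 42 bases before the *Cldn23* start. Among the 10 claudins, CACCC and GGGCGG each occurred in 6 windows, and CACCTG in 3, those of *Cldn4*, *Cldn8* and *Cldn23*. The *Cldn8* window held CACCTG 2 times, while *Cldn8* had a day 6 log2 fold change of −0.03. TGANTCA, present in 6.46% of windows, occurred in the windows of *Cldn4* and *Cldn7* alone among the 10 claudins. It matched the *Cldn4* window 2 times, and the match nearer the start shares bases with the CACCC match. The *Cldn3* window held CACCC 5 times, and the *Cldn2* window held it 2 times and no other motif of the set. The grainyhead-like, caudal, TCF/LEF and HNF4 motifs matched none of the 10 windows and occur in 1.95% to 3.76% of all windows. The GC content was 62% for *Cldn4*, 72.4% for *Cldn23*, 60.8% for *Cldn3* and 55.6% for *Cldn2*, against a median of 51.2% over all windows. A match describes the letters of the window and is not a measured binding site.

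Levels were compared between genes as CPM per kilobase (kb) of the union of a gene's exons. In the day 6 EtOH libraries *Cldn3* (278 ± 9.03, SD, n = 2) and *Cldn7* (267 ± 31.9) stood highest and did not differ beyond their spread. *Cldn15* (138 ± 2.36) and *Cldn2* (129 ± 12.3), both pore-forming, came next and did not differ beyond their spread either. *Cldn4* followed at 68.4 ± 14.0 CPM per kb. *Cldn12* (7.70 ± 0.652) and *Cldn23* (4.72 ± 1.00) lay an order of magnitude lower and *Cldn8* (1.75 ± 0.975) lower still. In the day 6 libraries labelled 4-OHT the order of the upper genes was *Cldn3* (396 ± 16.7), *Cldn7* (254 ± 22.2), *Cldn2* (171 ± 11.2), *Cldn4* (148 ± 21.5) and *Cldn15* (142 ± 9.45). There *Cldn4* was level with *Cldn15* within the spread, and *Cldn23* (15.6 ± 2.14) stood above *Cldn12* (8.35 ± 0.379). The place of *Cldn7* depends on the length used: with the longest transcript in place of the exon union its mean over the 6 libraries was 394 instead of 249 CPM per kb, above the 324 of *Cldn3*. The reads of *Cldn3* may also be undercounted, since 72% of its exon bases lie opposite exons of *Wbscr25* and the strand setting of the counting is not stated. *Cldn7* shares 15.7% of its exon bases with *Elp5*, also on the opposite strand.

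*Cldn1* had 0 counts in every library, which over 110660199 gene counts allows a level of up to 0.0271 CPM for 3 counts, counting error only. *Cldn6* had 0 to 3 counts per library, at or under the 3 counts a count of 0 allows. The stress- or injury-type claudin *Cldn1* was therefore not detected at this depth with either treatment, and no fold is given for *Cldn1* or *Cldn6*. Of the other 27 claudin genes, 14 had 0 counts in every library and 11 had fewer than 10 counts in each. *Cldn18*, known from stomach and lung, had 6 and 29 counts with EtOH at day 6 and 17 and 43 with 4-OHT. At day 4 it had 9 counts with EtOH and 19 with 4-OHT. Its groups overlapped, and the day 6 log2 fold change, 0.63 (SE 0.74), had an adjusted p of 0.882 by edgeR. *Cldn11* reached 15 counts in EtOH replicate 1 of day 6 and 1 to 6 elsewhere.

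**Figure D1:**
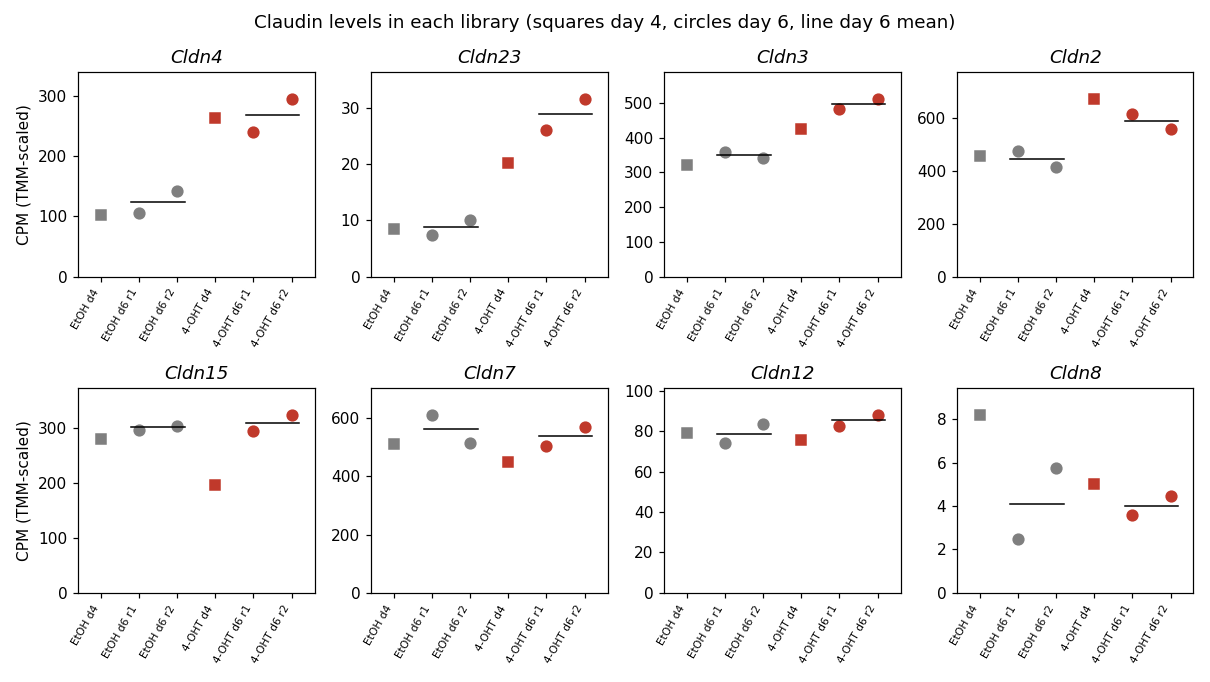
CPM of the 8 detected claudins in each of the 6 libraries, EtOH in grey and 4-OHT in red, squares for day 4, circles for day 6 and a line at the day 6 mean; each panel has its own axis from 0. *Cldn4*, *Cldn23*, *Cldn3* and *Cldn2* are higher in all 3 libraries labelled 4-OHT than in any EtOH library, while the groups overlap for *Cldn15*, *Cldn7*, *Cldn12* and *Cldn8*.

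The claudins of villus or surface cells, *Cldn4* and *Cldn23*, were the 2 of 8 tested claudins that rose at day 6, by 2.16-fold and 3.30-fold. In the fit over both days *Cldn3* rose as well, by 1.39-fold, and no claudin fell in either comparison. The test was the quasi-likelihood F-test of edgeR, called at a Benjamini-Hochberg adjusted p under 0.05. Of all 14066 genes tested at day 6, 2.51% passed, with 2.27% higher and 0.235% lower. Over both days 4.40% of 14060 genes passed, with 3.68% higher and 0.718% lower. The other 2 of the 10 claudins, *Cldn1* and *Cldn6*, did not pass the filter on low counts and were not tested.

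*Cldn4*, a barrier-forming claudin (ENSMUSG00000047501; chromosome 5, 134973973 to 134975788, minus strand, a gene of 1 exon), stood at 106 and 142 CPM in the day 6 EtOH libraries and at 241 and 296 CPM in those labelled 4-OHT. At day 4 the EtOH library had 102 CPM and the one labelled 4-OHT 264 CPM. The lowest of the 3 libraries labelled 4-OHT was thus well above the highest EtOH library, day 6 replicate 2. The day 6 log2 fold change was 1.11 (SE 0.19, 95% interval 0.68 to 1.53) (edgeR adjusted p 0.0143). Over both days it was 1.20 (SE 0.14, adjusted p 0.00131). At day 4, with 1 library per label and no test, the ratio was 2.58, with an exact 95% interval of 2.44 to 2.72 for counting error only.

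*Cldn23* (ENSMUSG00000055976; chromosome 8, 36291866 to 36293713, minus strand, 1 exon), the other claudin of surface cells, had 140 and 173 counts in the EtOH libraries of day 6 and 559 and 590 counts in their 4-OHT counterparts, or 8.72 ± 1.85 and 28.8 ± 3.96 CPM (SD, n = 2 each). At day 4 it was at 8.41 CPM with EtOH and 20.1 CPM with 4-OHT. The 3 EtOH libraries lay together and the 3 libraries labelled 4-OHT lay above them, the day 4 library lowest. Its day 6 log2 fold change of 1.72 (SE 0.25, 95% interval 1.17 to 2.27) had an edgeR adjusted p of 0.00544, and 1.57 (SE 0.19) over both days one of 0.00148. The day 4 ratio was 2.39, with an exact 95% interval of 1.97 to 2.91 for counting error only.

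Without EtOH replicate 1 of day 6, which leaves 1 EtOH library assumed to vary like the others, neither passed at day 6: the log2 fold change was 0.92 for *Cldn4* (adjusted p 0.0860) and 1.52 for *Cldn23* (adjusted p 0.0501). Without any other day 6 library both passed, and in the fit over both days both passed without any single day 6 library. Leaving out a day 4 library from that fit leaves treatment to the day 6 libraries alone, so it repeats the day 6 comparison. The log2 fold change was then 1.11 for *Cldn4* and 1.72 for *Cldn23*.

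*Cldn3* (ENSMUSG00000070473; chromosome 5, 135015068 to 135016326, plus strand, 1 exon), a barrier-forming claudin found along the whole epithelium, was at 358 and 342 CPM with EtOH at day 6 and at 484 and 513 CPM with 4-OHT. At day 4 it was at 323 and 424 CPM. The groups did not overlap, with the day 4 library again the lowest of those labelled 4-OHT. At day 6 the log2 fold change was 0.51 (SE 0.16) with an edgeR adjusted p of 0.199, which did not pass, although its unadjusted p was 0.0102 and 10.3% of all genes had one under 0.05. Over both days it was 0.47 (SE 0.10) and passed (adjusted p 0.0333). That call was kept without EtOH replicate 1 of day 6 and lost without any other day 6 library (edgeR adjusted p 0.0695 to 0.154). Without either day 4 library the fit rests on the day 6 libraries alone, and the call was lost there too. The log2 fold change of *Cldn3* was then 0.50 or 0.51.

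*Cldn2* (ENSMUSG00000047230; chromosome X, 138701480 to 138712135, plus strand), the crypt claudin that forms cation and water pores, was not lower in the libraries labelled 4-OHT. It was at 473 and 414 CPM with EtOH at day 6 against 614 and 559 CPM, and at 454 against 672 CPM at day 4. All 3 libraries labelled 4-OHT were above all 3 EtOH libraries, the day 4 one highest. The log2 fold change was 0.40 (SE 0.17, adjusted p 0.440) at day 6 and 0.46 (SE 0.11, 95% interval 0.20 to 0.71, adjusted p 0.0589) over both days, and neither passed in edgeR. Over both days it passed with DESeq2 (adjusted p 0.00526), without a filter on low counts (0.0408) and without EtOH replicate 1 of day 6 (0.0304). It did not pass with limma-voom (adjusted p 0.0525). In edgeR it did not pass without any other day 6 library (adjusted p 0.111 to 0.232) or with no day term (0.0901). Nor did it with median-of-ratios scaling (0.0597) or a filter at 1 CPM (0.0616).

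Among all genes tested, both day 6 libraries labelled 4-OHT lay above both EtOH libraries in 20.4%, and all 3 above all 3 in 11.1%. Among the 8 claudins tested this was so for 4 in either case, *Cldn2*, *Cldn3*, *Cldn4* and *Cldn23*. Wholly below the EtOH libraries lay 18.4% of all genes at day 6 and 9.02% over the 6 libraries, and 0 of the 8 claudins. At day 4 alone *Cldn4* and *Cldn23* were more than 2-fold higher, as were 5.59% of all genes. At least 2-fold lower there were 2.19% of all genes and 0 of the 8 claudins. With 8 genes, a count of 0 cannot be told apart from these shares. *Cldn8* was the only claudin at least 1.5-fold lower there (6.52% of genes), with a 4-OHT to EtOH ratio of 0.612 (0.458 to 0.812, counting error only).

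*Cldn15* (ENSMUSG00000001739; chromosome 5, 136995470 to 137004712, plus strand), the other cation-pore claudin, was at 297 and 304 CPM with EtOH and 295 and 324 CPM with 4-OHT at day 6. At day 4 it was at 280 CPM with EtOH and 196 CPM with 4-OHT, the lowest of the 6 libraries. The day 6 groups overlapped, and the log2 fold change was 0.04 (SE 0.16, 95% interval −0.31 to 0.39). The day 4 ratio was 0.698, with an exact 95% interval of 0.667 to 0.731 for counting error only. The difference between the day 6 and day 4 log2 fold changes, 0.56 (SE 0.28, 95% interval −0.05 to 1.17), did not pass (unadjusted p 0.0692, adjusted p 1.00, edgeR interaction test).

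*Cldn7* (chromosome 11, 69852648 to 69858711, plus strand) was at 611 and 515 CPM with EtOH and 504 and 570 CPM with 4-OHT at day 6, and at 510 and 450 CPM at day 4. *Cldn12* (chromosome 5, 5539537 to 5564995, minus strand) was at 74.0 and 83.5 CPM against 82.6 and 88.1 CPM at day 6, and at 79.3 and 75.4 CPM at day 4. The groups overlapped for both of these widely expressed claudins. The 95% interval of the log2 fold change over both days was −0.37 to 0.16 for *Cldn7* and −0.19 to 0.30 for *Cldn12*. *Cldn8* (chromosome 16, 88357716 to 88360071, minus strand), with 47 to 160 counts per library, was at 2.49 and 5.74 CPM against 3.58 and 4.45 CPM at day 6, and at 8.20 and 5.02 CPM at day 4. Its EtOH libraries alone ranged more widely than those labelled 4-OHT, and its day 6 interval was −0.97 to 0.90.

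**Figure D2:**
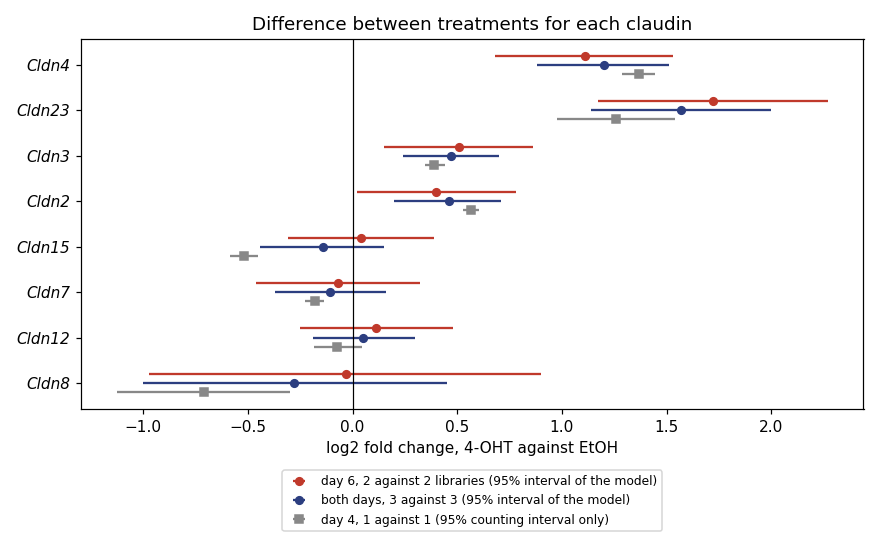
Log2 fold change of the 8 detected claudins, 4-OHT against EtOH, with 95% intervals: day 6 (red) and both days (blue) from the edgeR model, day 4 (grey) from the ratio of 1 library to 1, whose interval covers counting error only. *Cldn4* and *Cldn23* lie farthest to the right, at 1.11 and 1.72 at day 6, and the model intervals of *Cldn15*, *Cldn7*, *Cldn12* and *Cldn8* cross 0.

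By group, the summed level of *Cldn4* and *Cldn23* was 111 to 152 CPM in the 3 EtOH libraries and 267 to 328 CPM in the 3 libraries labelled 4-OHT. The summed level of the pore-forming pair *Cldn2* and *Cldn15* was 718 to 770 CPM with EtOH and 868 to 908 CPM with 4-OHT. Both sums were thus higher with 4-OHT without overlap, the first by more. Most of the first sum was *Cldn4* itself, at 102 to 142 CPM with EtOH and 241 to 296 CPM with 4-OHT. In the second sum *Cldn2* alone was higher without overlap, since *Cldn15* overlapped at day 6 and was lower with 4-OHT at day 4. The sums of *Cldn3*, *Cldn7* and *Cldn12* overlapped, at 913 to 1043 and 949 to 1171 CPM.

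Ratios of 2 genes within a library do not depend on how libraries are scaled. The ratio of *Cldn4* to *Cldn2* per kb, surface against crypt type, was 0.425, 0.650 (day 6) and 0.427 (day 4) with EtOH and 0.743, 1.00 (day 6) and 0.744 (day 4) in the libraries labelled 4-OHT. *Cldn4* relative to *Cldn7* was 0.203 to 0.321 with EtOH and 0.557 to 0.682 with 4-OHT, and *Cldn23* relative to *Cldn7* was 0.0139 to 0.0222 and 0.0510 to 0.0634. The treatments did not overlap in any of these ratios, and EtOH replicate 2 of day 6 lay closest to the 4-OHT range in each. The ratio of the pore-forming pair *Cldn2* to *Cldn15* was 0.862 to 1.03 with EtOH, 1.32 and 1.09 with 4-OHT at day 6, and 2.18 with 4-OHT at day 4. The day 4 library labelled 4-OHT thus stood apart in this ratio, with the highest *Cldn2* and the lowest *Cldn15* of the 6.

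**Figure D3:**
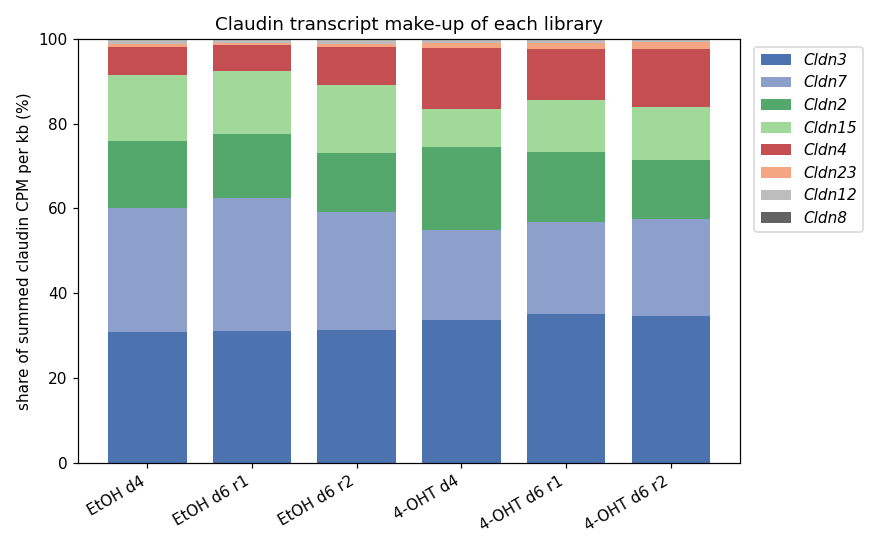
Share of each claudin in the summed claudin CPM per kb of each library, stacked to 100%, with d for day and r for replicate. *Cldn4* takes 6.37% to 8.99% with EtOH and 12.1% to 14.5% with 4-OHT, and *Cldn7* takes 28.0% to 31.5% and 21.3% to 22.9%.

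In the claudin make-up of each library, *Cldn3* was 30.9% to 31.2% with EtOH and 33.6% to 35.1% with 4-OHT. The share of *Cldn4* was higher in each library labelled 4-OHT than in any EtOH library. *Cldn7* had a smaller share with 4-OHT, 21.3% to 22.9% against 28.0% to 31.5%, although its own CPM overlapped between treatments. The summed claudin level was 831 to 919 CPM per kb with EtOH and 1001 to 1180 CPM per kb with 4-OHT; these shares were not tested. *Cldn23* stayed a small part, at 0.437% to 0.623% and 1.09% to 1.45%.

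Between the days at equal treatment, 0 of the 8 claudins passed in the edgeR fit over all 6 libraries, in which 0.562% of all genes passed (0.327% higher at day 6 and 0.235% lower). *Cldn15* was the 1 claudin with an unadjusted p under 0.05, with a log2 difference of 0.37 (SE 0.14) between day 6 and day 4 and an adjusted p of 0.317. The day 4 libraries have library numbers of a separate series, so day and library series cannot be told apart. A change of the treatment difference between the days was called for 0 of the 8 claudins by the edgeR interaction test and for 0 by DESeq2. In edgeR 0 claudins had an unadjusted p under 0.05, against 1.62% of all genes, and 0% of all genes passed. The day 4 libraries have no replicate in this test and were assumed to vary like those of day 6. A count of 0 thus does not show that the treatment difference was the same at both days. The interval of the day 6 minus day 4 difference was −0.98 to 0.47 for *Cldn4* and −0.49 to 1.42 for *Cldn23* on the log2 scale.

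*Cldn3* and *Cldn4* are neighbours, 39280 bases apart on chromosome 5. Of the 8 other genes tested within 100 kb of either, 0 were called at day 6 or over both days in edgeR. Of all genes, 2.51% and 4.40% were called, and with 8 genes a count of 0 cannot be told apart from these shares. Over both days 4 had a log2 fold change above 0 and 4 below, from −0.21 for *Abhd11* to 0.26 for *Abhd11os* and *Wbscr25*. *Mettl27*, 2482 bases from *Cldn4*, was at −0.11 (adjusted p 0.785), and *Wbscr25*, which overlaps *Cldn3*, had an adjusted p of 0.856. These neighbours were named after their values were seen.

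Over the 6 libraries, the genes of a mean of at least 5 CPM whose log2 CPM followed *Cldn4* most closely, of 10119 protein-coding genes, were *Tle6* (Pearson r 0.9989), *2610528J11Rik* (0.9970) and *Ablim1* (0.9960). Those closest to *Cldn23* were *Tmem220* (0.9963), *Rhod* (0.9959) and *Ehbp1l1* (0.9957). These values describe 6 points that share treatment and day, and the closest of so many genes are close in any case.

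The other components of the tight junction were read from a list of 34 genes of scaffolds, polarity proteins and other junction membrane proteins. Of 29 tested, 1 rose and 0 fell at day 6, where 2.27% of all genes were called higher and 0.235% lower. Over both days 3 rose and 0 fell, against 3.68% and 0.718% of all genes. The list's median log2 fold changes were 0.20 at day 6 and 0.18 over both days, against −0.013 and −0.009 for all genes tested. All 3 libraries labelled 4-OHT were above all 3 EtOH libraries for 12 of the 29 and below for 0, against 11.1% and 9.02% of all genes. *Ildr1*, an angulin of tricellular junctions, was at 2.54 and 7.25 CPM with EtOH and 19.4 and 33.2 CPM with 4-OHT at day 6, and at 6.31 and 41.3 CPM at day 4. Its log2 fold change of 2.43 (SE 0.43, edgeR adjusted p 0.0162) at day 6 was larger than that of any claudin. *F11r*, which encodes junctional adhesion molecule A, rose over both days by 0.64 (SE 0.12, adjusted p 0.0128) and *Cgnl1*, the cytoskeletal linker paracingulin, by 0.80 (SE 0.16, adjusted p 0.0202).

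The main scaffold and strand partners of claudins did not pass in either comparison. *Tjp1*, which encodes ZO-1, had a log2 fold change of 0.47 (SE 0.20, adjusted p 0.279) over both days, *Tjp3* −0.18 (adjusted p 0.537) and the occludin gene *Ocln* 0.28 (0.239), by the same edgeR test.

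**Figure D4:**
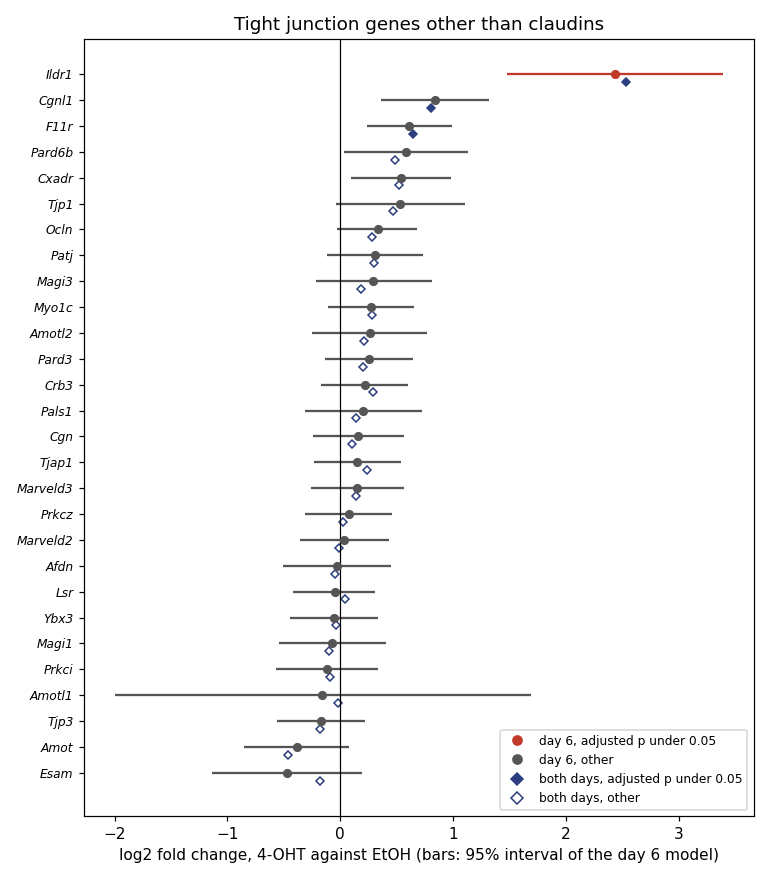
Log2 fold change, 4-OHT against EtOH, of 28 of the 29 tested tight junction genes other than claudins: circles with 95% intervals for day 6, red where the adjusted p is under 0.05, and diamonds just below for both days, filled where it is. *Ildr1* stands apart at 2.43, and *F11r* and *Cgnl1* pass over both days only.

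Of 15 listed genes whose proteins bind, anchor or process claudins or junction proteins, 13 were tested, 1 rose at day 6 and 2 over both days, and 0 fell, beside the 2.27% and 3.68% of all genes called higher. *Epcam*, whose protein holds claudin-7 at the lateral membrane, was at 1351 and 1359 CPM with EtOH and 1221 and 1402 CPM with 4-OHT at day 6, without a difference that passed. *Pdzk1*, a brush border scaffold, had 9 and 4 counts with EtOH against 66 and 43 with 4-OHT at day 6. It rose there by 2.88 on the log2 scale (SE 0.57, edgeR adjusted p 0.0280). Both EtOH libraries were under the filter's minimum count of 10, so *Pdzk1* entered this test only through the libraries labelled 4-OHT. Its call, the only one of the list at day 6, is therefore no support for a rise of the list. *Spint1*, an inhibitor of the protease matriptase, rose over both days by 0.53 (SE 0.10, edgeR adjusted p 0.0158).

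Of 21 listed transcription factors of intestinal or junction genes, 18 were tested at day 6, of which 1 rose and 0 fell, a share not far from the 2.27% of all genes called higher. The gene was *Klf4*, known from differentiated surface and goblet cells, at 44.0 and 61.2 CPM with EtOH and 97.5 and 126 CPM with 4-OHT at day 6, and at 68.6 and 96.2 CPM at day 4. Its log2 fold change was 1.09 (SE 0.21, edgeR adjusted p 0.0238) at day 6 and 0.89 (SE 0.18, adjusted p 0.0201) over both days. *Cdx2* (0.08 over both days), *Hnf4a* (−0.04), *Grhl2* (−0.19) and *Klf5* (−0.07) did not pass.

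Markers of several epithelial states differed between treatments beside *Cldn4* and *Cldn23*. At day 6, 2.27% of all genes were called higher and 0.235% lower. Of 12 enterocyte markers 9 rose and 0 fell at day 6, and their summed level was 1792 and 1758 CPM with EtOH against 4613 and 3662 CPM with 4-OHT, and 1291 against 1748 CPM at day 4. *Krt20*, a gene of the villus tip, was at 22.6 and 19.5 CPM against 144 and 122 CPM at day 6. At day 4 it was at 3.43 CPM with EtOH and 26.6 CPM with 4-OHT. Of 11 markers of fetal-like or wound epithelium, 8 were tested and 7 rose at day 6, with a summed level of 192 to 306 CPM in the EtOH libraries and 386 to 576 CPM in those labelled 4-OHT, and *Spp1* at 0. In both lists the share called was above that of all genes. All gene lists here were chosen with earlier results of these data known. Their shares beside those of all genes are therefore descriptive and no independent support.

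Of all genes, 2.27% were called higher and 0.235% lower at day 6, and 3.68% and 0.718% over both days. Of 10 stem cell markers 0 rose at day 6 or over both days. *Olfm4* fell at day 6, and *Olfm4* and *Rgmb* fell over both days. Wholly below the EtOH libraries lay 5 of the 10 at day 6 and 4 over all 6 libraries, against 18.4% and 9.02% of all genes. The stem cell sum was 5315 to 6367 CPM with EtOH and 3906 to 4505 CPM with 4-OHT. Of 8 goblet cell markers 2, *Clca1* and *Zg16*, rose at day 6, while the sum was 3382 and 3481 CPM with EtOH and 2884 and 2598 CPM with 4-OHT at day 6, and 2053 against 2445 CPM at day 4. Of 7 tuft cell markers 5 were tested and 1, *Dclk1*, fell at day 6, with sums of 37.1 and 20.3 CPM against 11.4 and 9.75 CPM, 10.8 against 7.33 CPM at day 4, and *Gnat3* and *Il25* at 0. The goblet and tuft sums were thus lower with 4-OHT at day 6, and at day 4 the goblet sum was higher.

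Of 7 Paneth cell markers 0 passed at day 6 in edgeR (3 at an unadjusted p under 0.05) and 1, *Ang4*, rose over both days, with sums of 2810 and 2019 CPM with EtOH against 4928 and 2021 CPM with 4-OHT, and 397 against 1659 CPM at day 4. Of 8 enteroendocrine markers 0 passed in edgeR in either comparison (1 at an unadjusted p under 0.05 at day 6), with sums of 449 and 361 CPM against 701 and 357 CPM at day 6, and 59.8 against 263 CPM at day 4. For both lists the day 4 EtOH library was the lowest of the 6. Among all genes tested in edgeR, 2.27% were called higher at day 6 and 3.68% over both days. At day 6, 10.3% had an unadjusted p under 0.05. Of 8 markers of M cells, another site of claudin-4, 6 were tested and 1, *Anxa5*, rose, while the defining *Gp2* had at most 3 counts and the sums overlapped at 72.8 to 130 and 97.0 to 110 CPM. The part of these cell states in the claudin values was not tested. In such bulk libraries, fewer cells of a type and less RNA per cell cannot be told apart.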

How the data were processed

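Raw read counts per Ensembl gene, deposited by the authors as 1 file per library and not normalized, were used for 6 libraries grouped by the treatment and day in their titles. STAR and the mm39 build are named in the submitters' processing notes; the counting tool, its strand setting and its annotation are not given in the sources used here. Per the labels' protocols, RNA was selected with poly-T beads and no molecular identifiers are mentioned. The 4 summary lines per file, with 19.3% to 26.7% of entries, were left out. Symbols and exons came from GENCODE M39 on GRCm39 (56323 of 56884 identifiers matched, 99.96% of gene counts).

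Counts were tested with edgeR 4.0.16 (glmQLFit and glmQLFTest, TMM, filterByExpr with minimum count 10) in R 4.3.3, with Benjamini-Hochberg adjustment over all genes tested: the 4 day 6 libraries alone, and all 6 with day as a term. SE is the absolute log2 fold change over the square root of F. CPM are TMM-scaled over the 6 libraries. The day 4 pair was not tested. Its ratio has an exact conditional interval. The scripts were tested on simulated data. Replicates differed by more than sampling noise (chi-square per degree of freedom 35.9 for EtOH and 25.0 for 4-OHT at day 6) and were kept apart. Alternatives were other scaling, filters, DESeq2 1.42.0, limma-voom 3.58.1, a block on replicate number and leaving out each library. All 10 claudins were named. Other claudins were named at 10 or more counts in a library, and listed genes where the adjusted p was under 0.05, at most 6 per list. *Tjp1*, *Tjp3*, *Ocln*, *Epcam*, the cell state markers, *Cdx2*, *Hnf4a*, *Grhl2* and *Klf5* were named outside this rule. The claudins and gene lists were chosen with earlier results of these data known. Some listed genes are not reported here.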

Additional observations from a re-analysis of the deposited data

How the results depend on the processing

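*Cldn4* and *Cldn23* were called at day 6 under every scaling, filter and test tried, and lost their calls only without EtOH replicate 1 of day 6. The count of claudins called at day 6 was 0 to 2 when a library was left out, and over both days 2 to 4. The count of all genes called, 353 at day 6 and 618 over both days, was 113 to 409 and 361 to 701 when a library was left out, 839 at day 6 with a replicate block and 361 over both days with no day term. In the fit over both days, leaving out a day 4 library leaves treatment to the day 6 libraries alone. The labels do not say that replicate numbers pair the libraries. The differences between replicates 1 and 2 of the 2 treatments correlated at 0.266 across genes. With the block the same 2 claudins were called. For the interaction, with 0 genes called, 0 to 13 passed when a library was left out and 6 with DESeq2, and 0 claudins in each case. Between days 12 to 559 genes passed when a library was left out and 318 with DESeq2, against 79.

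Directions turned for claudins near 0 that did not pass. At day 6 *Cldn8* was at −0.03, and at 0.08 with limma-voom, 0.03 with the replicate block and −0.52 to 0.68 without single libraries. Without single libraries *Cldn7* ranged from −0.19 to 0.06 and *Cldn15* from −0.04 to 0.11 at day 6, *Cldn15* from −0.24 to 0.04 and *Cldn12* from −0.02 to 0.11 over both days, *Cldn7* from −0.03 to 0.24 in the interaction, and *Cldn12* from −0.02 to 0.18 between days. *Cldn3* lost its call over both days with no day term (0.47, adjusted p 0.0731). With the longest transcript as length, mean CPM per kb was 168 for *Cldn2*, 394 for *Cldn7*, 9.61 for *Cldn12* and 146 for *Cldn15*, in place of 155, 249, 7.87 and 130. Depth limits *Cldn1* and *Cldn6*, which were at or under 3 counts in every library.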
